A study of Mus musculus with 14 samples.

Results

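The comparison described here set S9+COL2+ chondroblasts (CBs) of mouse forelimb buds at E11.5 beside S9-Pαhi limb bud mesenchymal progenitors (LMPs) at E10.5. It took in 6 of the 14 RNA-seq samples of the series, 3 of each population, and all 15125 genes that passed the filter on low counts out of 24454 in the table. Every embryo carried the Sox9-IRES-EGFP reporter allele in a mixed Swiss Albino background, and forelimb buds of several embryos were pooled for each sample. Both populations were sorted as live (7AAD-) cells that lacked CD31, Ter119, CD45, EpCam, Gr1 and CD11b, which removes endothelial, blood and ectodermal cells. The S9-Pαhi LMPs were Sox9-EGFP-negative, JAG1-negative and SCA-1-negative with high PDGFRα. The CBs were Sox9-EGFP-positive with high PDGFRα, and their gate lists no JAG1 or SCA-1 exclusion. Stage and population therefore changed together, as did the JAG1 and SCA-1 gates, and the effects of stage and of population cannot be told apart in this contrast. The 3 S9+Pαhi osteo-chondrogenic progenitor (OCP) samples at E10.5, which are Sox9-positive like the CBs and of the same stage as the LMPs, are given beside single genes. The labels do not say whether replicates came from separate litters or days, so p-values measure the spread between these samples.

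In the limb bud, undifferentiated mesenchyme proliferates under signals from the apical ectodermal ridge (FGFs) and the posterior polarising region (SHH), while cells of the core start to express SOX9 and condense. SOX9, with its partners SOX5 and SOX6, activates the genes of cartilage matrix, and the condensed cells become chondroblasts that deposit type II, IX and XI collagens and aggrecan. WNT and FGF signals keep peripheral mesenchyme from chondrogenesis, BMP signals promote it, and BMP antagonists such as noggin limit it.

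The 3 CB libraries held 28043776, 27545133 and 24283536 counts and the 3 LMP libraries 24977479, 26907359 and 20644076. Distances between libraries over all tested genes (log2 CPM) were 107.4 to 135.2 between the populations, against 40.76 to 55.05 among CBs and 45.94 to 59.28 among LMPs, so that the populations stood apart by more than their replicates did. Levels are given as CPM, counts per library size after TMM scaling, always in the order of replicates 1, 2 and 3, and levels of different genes are compared only per kilobase of exon (RPKM). A gene was called when edgeR's quasi-likelihood test gave a Benjamini-Hochberg adjusted p of at most 0.1 and its log2 fold change (CBs over LMPs, given ± SE) was at least 1.2 in size. Positions are those of whole RefSeq genes on GRCm38 (mm10). Libraries also differed in the summed level of lists written for other cell types and for nuclear-retained RNAs. The summed level of 14 genes of glia and neural crest was 74.8 to 81.9 CPM in CBs and 21.6 to 22.9 CPM in LMPs, and that of 8 nuclear-retained RNAs was 629 to 929 CPM and 219 to 412 CPM. These lists are not free of mesenchymal genes. The glial list shares Tfap2b with the patterning factors, and the nuclear RNA list shares Meg3, Mirg and Rian with the imprinted growth genes. CB replicate 3 and LMP replicate 3 also stood apart in positional genes, as described with those genes. The part of these differences in the results was not tested. In sorted pools, fewer cells of a type and less RNA per cell cannot be told apart.

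CBs differed from LMPs mostly by genes that were higher. Of the 15125 tested genes, 1637 (10.8%) were called higher in CBs and 277 (1.83%) lower. These shares are the background for all counts of called list members given below. Without the limit on fold change the directions were nearly even, with 4555 genes (30.1%) higher and 3940 (26.0%) lower, so that the share of calls in the higher direction was 53.6% in place of 85.5%. The median log2 fold change of all tested genes was 0.05, and 0.16 when libraries were scaled by their totals in place of TMM. The asymmetry was widest in genes of low level and shrank as the level rose. Among 2329 genes with a mean of at most 0 log2 CPM over the 14 libraries, 831 (35.7%) were called higher and 101 (4.34%) lower, whereas among the 4107 genes above 6 log2 CPM the calls were balanced, with 43 (1.05%) higher and 44 (1.07%) lower. In between, 408 were called higher and 54 lower from 0 to 2 log2 CPM, 241 and 33 from 2 to 4, and 114 and 45 from 4 to 6. Calls also followed transcript length. In the shortest quintile of genes (up to 1598 bases) 6.18% were called higher and 2.51% lower, and in the longest quintile (from 4908 bases) 15.4% and 1.09%.

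**Figure D1:**
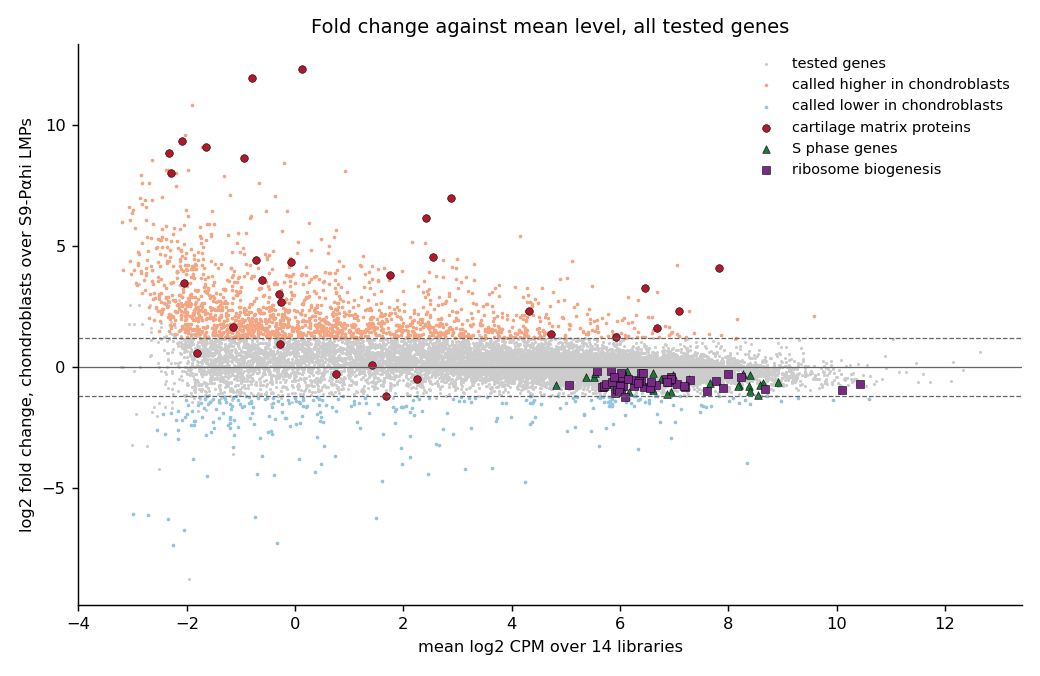
Each point is 1 of the 15125 tested genes, by its mean log2 CPM over all 14 libraries (x axis) and its log2 fold change of chondroblasts over S9-Pαhi LMPs (y axis). Dashed lines mark the fold change limit of 1.2. Genes called higher fan out towards low levels, most cartilage matrix genes (red circles) lie far above the upper line, and S phase (green triangles) and ribosome biogenesis genes (purple squares) lie between 0 and the lower line, with 1 ribosome biogenesis gene below it.

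Of the genes that the sort used or named, Sox9 and Jag1 followed its gates. Levels of all of them are given as a description with no test. Sox9 (chr11:112782210-112787757) stood at 411, 571 and 625 CPM in CBs and at 64.3, 57.2 and 65.5 CPM in LMPs. Pdgfra was at 949.7, 869 and 773 CPM and 437, 530.1 and 360.3 CPM, with every CB library above every LMP library although both gates asked for high PDGFRα protein. Jag1, whose protein was excluded from the LMPs alone, was at 102, 119 and 137 CPM in CBs and 11.8 ± 1.36 CPM (SD, n = 3) in LMPs. Ly6a, which encodes SCA-1, lay near the floor of 3 counts per library (0.101 to 0.149 CPM) in both populations, with at most 0.37 CPM in any of the 6 libraries. Col2a1 (chr15:97975602-98004724), the type II collagen chain that names the CBs, was at 1274, 1451 and 1886 CPM in CBs and 114, 94.6 and 60.8 CPM in LMPs, a 17.1-fold difference, and it reached 989.5 ± 271 CPM (SD, n = 3) in OCPs.

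The 3 other marker genes separated the populations. Sox6 (chr7:115470872-116040776), the SOX9 partner, was at 116, 147 and 184 CPM in CBs and 19.3, 28.8 and 17.7 CPM in LMPs. No CB library came near the LMP range, and the log2 fold change was 2.76 ± 0.22 (adjusted p = 5.61e-07). Msx1 (chr5:37820491-37824585), a homeobox gene of undifferentiated distal and peripheral mesenchyme, ran the other way, at 22, 30.8 and 28.1 CPM against 289.6, 268 and 295 CPM. Every LMP library lay far above every CB library (log2 fold change -3.40 ± 0.17, adjusted p = 3.46e-08). Tbx2 (chr11:85832615-85841948), a T-box repressor of the limb margins, was at 84, 92 and 71.7 CPM in CBs and 311, 259.8 and 191 CPM in LMPs. The groups did not overlap, with a log2 fold change of -1.62 ± 0.16 (adjusted p = 3.80e-06), but OCPs held still less Tbx2, at 24.7 ± 3.66 CPM (SD, n = 3), and CBs were 1.74 above OCPs on the log2 scale.

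**Figure D2:**
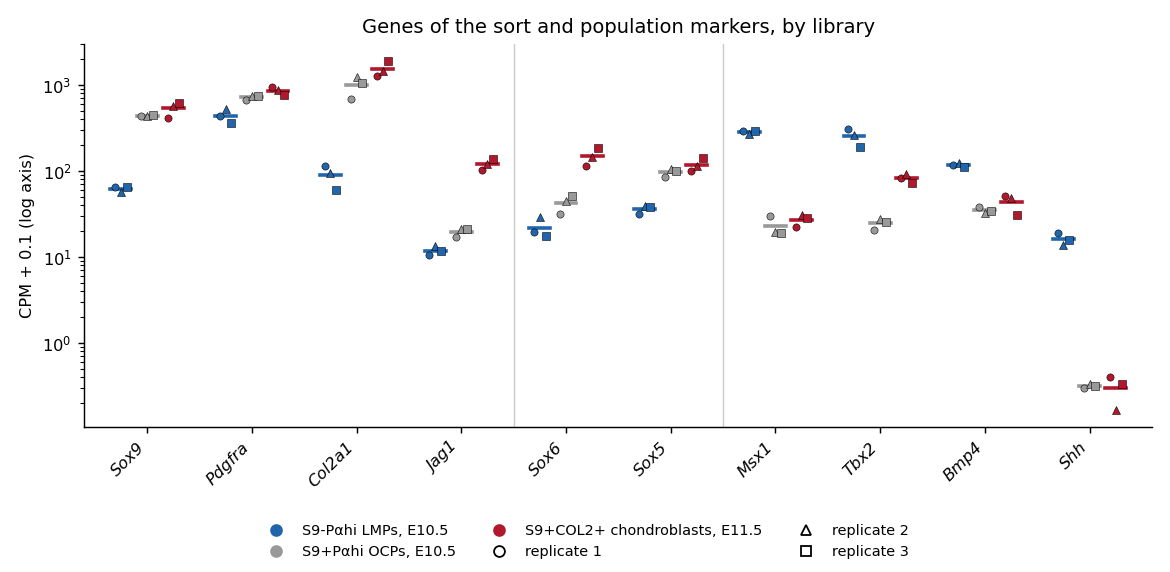
CPM + 0.1 of 10 genes on a log axis, 1 point per library (shape gives the replicate) and a bar at the mean of 3, for S9-Pαhi LMPs, OCPs and chondroblasts. The first 4 genes were used or named by the sort, Sox6 and Sox5 are higher in chondroblasts, and Msx1, Tbx2, Bmp4 and Shh are higher in the LMPs than in both Sox9-positive populations.

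Promoters are shown for 3 cartilage matrix genes that were higher and 1 WNT pathway gene that was lower, as examples of the sets whose regulators are named above. They give the 250 bases before the RefSeq start site (GRCm38.p6), 5′ to 3′ along the gene. RefSeq promoters were matched for 21 of the 25 cartilage matrix genes called higher and for 6 of the 8 WNT targets and modulators called lower. Capitals mark the SOX words AACAAT and AACAAAG in the first 3 and the TCF/LEF words CTTTGAT and CTTTGAA in the last, on either strand. Each family was marked only in the windows of its own set, so words of the other family stay in lower case. The Dkk1 window holds CTTTGTT, a SOX word on the other strand, and the Epyc and Col9a2 windows hold the TCF/LEF word CTTTGAT. The SOX words were in 3 of the 21 windows (14.3%), those of Epyc, Thbs3 and Prelp, against 8.24% of the 11743 windows of tested genes and 14.0% of all 27025. The TCF/LEF words were in 1 of 6 (16.7%), that of Dkk1, against 5.36% and 7.69%. Epyc has SOX words starting 236 and 139 bases before its start, Thbs3 has 1 at 88 bases, and Dkk1 has its TCF/LEF word at 117 bases. Col9a2, a gene with one of the clearest differences in level, has none of the SOX words in this window. A match is a run of letters, not a measured site.
Epyc (chr10:97643818-97644067, + strand): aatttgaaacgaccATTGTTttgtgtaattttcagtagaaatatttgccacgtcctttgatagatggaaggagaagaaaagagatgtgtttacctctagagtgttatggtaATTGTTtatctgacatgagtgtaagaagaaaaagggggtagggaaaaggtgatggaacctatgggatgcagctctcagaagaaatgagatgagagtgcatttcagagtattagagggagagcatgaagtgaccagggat
Thbs3 (chr3:89214930-89215179, + strand): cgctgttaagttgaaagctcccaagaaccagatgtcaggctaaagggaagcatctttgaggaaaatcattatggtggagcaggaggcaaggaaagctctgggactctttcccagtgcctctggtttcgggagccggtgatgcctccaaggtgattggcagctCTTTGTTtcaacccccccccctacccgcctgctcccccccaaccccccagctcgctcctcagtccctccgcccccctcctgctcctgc
Col9a2 (chr4:121039316-121039565, + strand): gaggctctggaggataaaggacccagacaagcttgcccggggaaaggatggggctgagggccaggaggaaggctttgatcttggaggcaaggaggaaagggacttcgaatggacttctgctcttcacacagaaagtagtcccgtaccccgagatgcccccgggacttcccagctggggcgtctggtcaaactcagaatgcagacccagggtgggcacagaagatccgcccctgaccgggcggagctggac
Dkk1 (chr19:30549497-30549746, - strand): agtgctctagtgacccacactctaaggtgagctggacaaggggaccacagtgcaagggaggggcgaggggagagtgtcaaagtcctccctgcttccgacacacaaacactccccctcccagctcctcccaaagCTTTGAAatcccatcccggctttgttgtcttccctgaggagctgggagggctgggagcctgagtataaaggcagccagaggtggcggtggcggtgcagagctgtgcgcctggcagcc

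Cartilage matrix had the largest median log2 fold change of the 46 gene lists. Of 31 tested members of the list, 25 were called higher in CBs against a background of 10.8%, and the median log2 fold change was 3.46 (3.30 with genes that are at 0 counts in LMPs set to their bound). The 36 genes of the list together took 2756 to 3909.8 CPM in CBs, 1312 to 2146 CPM in OCPs and 341 to 439 CPM in LMPs. The list holds Col2a1, which names the population. Type IX collagen, which coats type II fibrils, was higher in all of its chains. Col9a1 (chr1:24177589-24252738) was at 286, 369.9 and 459 CPM in CBs and 43.5, 33.7 and 38 CPM in LMPs. Col9a2 was at 119, 165 and 202 CPM against 1.22, 1.69 and 0.797 CPM, and Col9a3 at 80.3, 114 and 115 CPM against 1.75, 1.65 and 0.797 CPM. The LMP libraries held a clear level of Col9a1 and close to none of Col9a2 and Col9a3, and the log2 fold changes were 3.28 ± 0.18, 6.99 ± 0.38 and 6.16 ± 0.36 (adjusted p = 4.59e-08, 4.59e-08 and 5.88e-08). Per kilobase the same order held in CBs, with mean RPKM of 299 for Col2a1, 89.8 for Col9a1, 59 for Col9a2 and 36.2 for Col9a3.

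Of the other fibril chains, Col11a1 and Col11a2, which set the width of type II fibrils, were higher, Col11a2 by 4.56, and Comp, Fmod and Wwp2, a ubiquitin ligase whose gene holds a cartilage miRNA, were 3.46, 4.35 and 2.31 higher.

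Several matrix genes were close to absent from LMPs. Matn4 (chr2:164389393-164405160), a matrilin that links matrix filaments, was at 73.2, 104 and 111 CPM in CBs, and the 3 LMP libraries held 1 read in all. The ratio of the summed counts was 6801-fold (95% exact interval 1220.3 to 268660.1), an interval that covers counting error only. Prelp, a leucine-rich proteoglycan, also had 1 read in the LMPs, and was at 6.79, 8.9 and 7.19 CPM in CBs, a ratio of 544-fold (95% exact interval 97.4 to 21535). Chondromodulin (Cnmd), the secreted inhibitor of angiogenesis in cartilage, had no count in LMPs and was at 16.5, 20.6 and 20.7 CPM in CBs, which is at least 150.3-fold higher against a floor of 3 counts per library. Matn1, Mgp, Epyc and Cytl1 were likewise at 0 counts in the LMPs and at 0.841 to 4.01 CPM in CBs, at least 25-fold, 21.2-fold, 17.6-fold and 9.87-fold higher. Acan (chr7:79053226-79115099), the large proteoglycan of mature cartilage, was still low in CBs, at 3.43, 10.3 and 14.9 CPM, against 0.163, 0.451 and 0.747 CPM in LMPs. Replicate 1 had the least of the 3 CB libraries, yet the groups did not overlap (log2 fold change 4.42 ± 0.57, adjusted p = 3.72e-05). Its mean of 1.3 RPKM was far under the 299 RPKM of Col2a1. Not all of the list moved this way. Hapln1, the link protein of aggrecan, was at 2.25, 2.36 and 3.3 CPM in CBs and 5.33, 6.13 and 6.53 CPM in LMPs, lower in every CB library and just inside the fold limit (log2 fold change -1.19, adjusted p = 0.00149), and it was called lower without CB replicate 3 (-1.42) or LMP replicate 1 (-1.26). Matn3, another matrilin, had a log2 fold change of -0.52 (adjusted p = 0.0536). Reads of Epyc, whose exon length overlaps an antisense gene over 40.6%, cannot be told apart from that gene's, since the strand setting of the counting is not given in the sources used here.

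**Figure D3:**
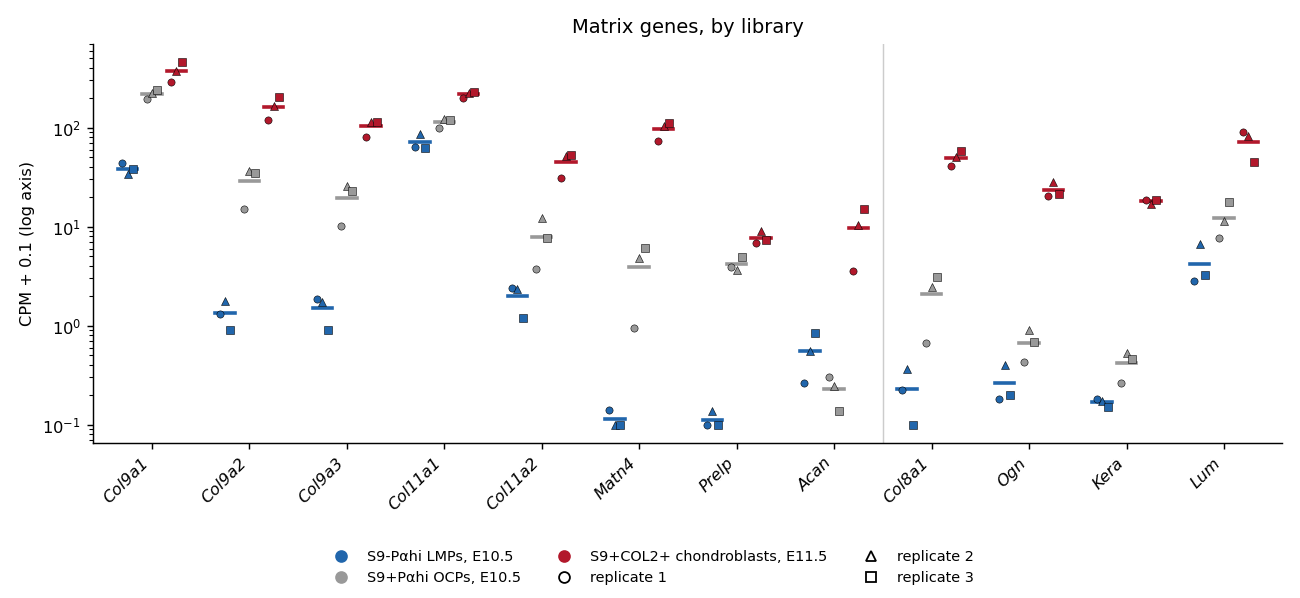
CPM + 0.1 of 12 matrix genes on a log axis, 1 point per library and a bar at the mean of 3. For the 8 cartilage genes on the left the OCPs lie between LMPs and chondroblasts except for Acan, where they are no higher than the LMPs; for the 4 other matrix genes on the right the OCPs lie well below the chondroblasts.

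Transcription factors of the chondrogenic list were higher in 18 of 34 tested members, with a median log2 fold change of 1.56; the list holds Sox9, which the sort used. Sox5 was at 99.1, 114 and 139.9 CPM in CBs and 31.5, 39.3 and 38.4 CPM in LMPs (log2 fold change 1.69 ± 0.14, adjusted p = 1.12e-06), with OCPs at 97 ± 11 CPM (SD, n = 3). The forkhead gene Foxc1 (chr13:31806646-31810635), a SOX9 cofactor in cartilage, stood at 164, 230.1 and 239.8 CPM in CBs and 5.86, 3.65 and 5.38 CPM in LMPs. LMP libraries were uniformly low, and the difference was 42.7-fold (log2 fold change 5.42 ± 0.32, adjusted p = 5.88e-08). Its paralog Foxc2 was at 19.1, 25 and 31.8 CPM against 0.935, 1.13 and 1.54 CPM. RUNX genes, which act in chondrocyte maturation and bone formation, divided. Runx1 was at 17.8, 24.5 and 31.5 CPM in CBs and 1.26, 1.54 and 1.1 CPM in LMPs, and Runx3 at 5.75, 9.34 and 11.4 CPM and 0.366, 0.564 and 0.548 CPM. Both were higher in each CB library (log2 fold changes 4.23 ± 0.29 and 4.15 ± 0.31, adjusted p = 1.76e-07 and 4.01e-07), whereas Runx2, the master regulator of bone, overlapped between the groups at 54.1, 52.1 and 26.5 CPM and 39.8, 33.8 and 14.4 CPM (adjusted p = 0.196). The OCPs had 0.896 ± 0.446 CPM of Runx1 and 0.59 ± 0.195 CPM of Runx3 (SD, n = 3), near the level of the LMPs. Nkx3-2, a repressor that acts downstream of SHH and promotes cartilage fate, had no count in the LMPs and 5.72, 9.1 and 12.1 CPM in CBs, at least 69.9-fold higher. Pax9, Nfia, Nfib, Mef2c and Creb5 were also called higher, with log2 fold changes from 1.68 to 4.17. Shox2, which patterns the proximal limb skeleton, and Osr1 were not called, at log2 fold changes of -0.24 and -0.05, and Osr1 changed sign under library totals (0.05) and without CB replicate 3 (0.06) or LMP replicate 1 (0.05).

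Small leucine-rich proteoglycans and matricellular proteins, the matrix of tendon, perichondrium and loose connective tissue as well as of cartilage, were higher in 16 of 36 tested members (median log2 fold change 1.00). Ogn (chr13:49608015-49624501) stood at 20.4, 28.3 and 21.1 CPM in CBs and 0.0813, 0.301 and 0.0996 CPM in LMPs, and Kera at 18.5, 16.9 and 18.4 CPM and 0.0813, 0.0752 and 0.0498 CPM. Both were at most 0.301 CPM in any LMP library, and OCPs had only 0.571 ± 0.242 CPM and 0.317 ± 0.138 CPM (SD, n = 3), so that the CBs were 5.36 and 5.81 above OCPs on the log2 scale. Lum (lumican) was at 89.6, 83 and 44.5 CPM in CBs, least in replicate 3, and 2.72, 6.51 and 3.14 CPM in LMPs. Thbs1 and Vcan, the large proteoglycan of condensing mesenchyme, were already well expressed in OCPs. Vcan reached 1634, 1494 and 1878 CPM in CBs against 333, 482 and 354 CPM in LMPs (log2 fold change 2.10 ± 0.24, adjusted p = 1.60e-05) and was at 1362 ± 592 CPM in OCPs. Of 29 other collagen chains, 10 were higher and 1 lower (median 0.71). Col8a1 (chr16:57624256-57754737), a short-chain network collagen, went from 0.122, 0.263 and 0 CPM in LMPs to 41.3, 50.4 and 57.4 CPM in CBs, a log2 fold change of 8.43 ± 0.56 (adjusted p = 1.32e-07). Its partner Col8a2 and Col6a1, of beaded filaments, were 2.88 and 1.54 higher, and Col4a5, of basement membranes, was at 1.27, but inside the limit without CB replicate 3 (1.15) or LMP replicate 3 (1.13). By contrast, Col13a1, a transmembrane collagen, was lower, at 1.38, 1.78 and 0.668 CPM in CBs and 5.12, 3.38 and 3.89 CPM in LMPs.

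The machinery that makes and trims the matrix shifted less. Of 38 collagen folding, crosslinking and secretion genes 9 were higher, and 27 passed the p limit alone in that direction (background 30.1%), with a median log2 fold change of 0.59. Creb3l2, a transcription factor of the secretory load of chondrocytes, was at 105, 129 and 146 CPM in CBs and 35.1, 37.3 and 27.9 CPM in LMPs (log2 fold change 1.92 ± 0.15). Colgalt2, which glycosylates collagen, was near 0.233 ± 0.0928 CPM in LMPs and 5.54 ± 1.44 CPM in CBs (SD, n = 3), a difference of 4.52 on the log2 scale. Kdelr3, a retrieval receptor of the endoplasmic reticulum, and Loxl1, a crosslinking enzyme, were 2.16 and 1.99 higher. Glycosaminoglycan synthesis and sulfation genes were higher in 8 of 45 (background 10.8%). Sulf1 (chr1:12692197-12861192), an extracellular 6-O-sulfatase of heparan sulfate, was at 196, 323 and 304 CPM in CBs and 15.9, 15.2 and 8.72 CPM in LMPs. The CB libraries exceeded every LMP library by far (log2 fold change 4.36 ± 0.31, adjusted p = 2.39e-07), while OCPs had 28.7 ± 7.56 CPM. Chst11, which sulfates chondroitin, was 2.14 higher, and so were the heparan 3-O-sulfotransferases Hs3st3a1 and Hs3st3b1 (2.96 and 2.88), near-identical genes whose reads may be split between them. Papss2, which makes the sulfate donor and is counted with the cartilage matrix list, was 3.80 higher. Among 28 metalloproteases and inhibitors, 10 were higher and 1 lower. Adamts17 was at 40.9, 42.7 and 35 CPM against 7.24, 6.51 and 5.53 CPM and Adamts12 at 21.2, 26.1 and 32 CPM against 3.33, 4.21 and 2.09 CPM (log2 fold changes 2.62 and 3.02). Adamtsl1, Adamts15 and the inhibitor Timp3 were 3.93, 2.05 and 1.81 higher. The lower one, Adamts20, a versican-cleaving protease, was at 10.9, 7.36 and 3.81 CPM against 18.6, 22.2 and 13.6 CPM, and was not called without CB replicate 3 (-1.03) or LMP replicate 2 (-1.12). Adhesion genes included 7 of 35 called higher (background 10.8%), among them Ncam1, an adhesion molecule of condensations, at 67, 78.5 and 75.1 CPM against 27.7, 34.2 and 24 CPM (log2 fold change 1.36 ± 0.14), the integrins Itga11, a collagen receptor, and Itgb8 (2.02 and 2.36), and Cdh4 (2.02).

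Genes of neighbouring skeletal tissues were higher too. Of 18 joint interzone genes 12 were called higher (median log2 fold change 1.66). Of 23 tendon and connective tissue genes 10 were higher and 1 lower (median 1.19), and the tendon count was 6 without LMP replicate 3. Both lists share members with other lists, so these counts are not separate from those. The joint list shares Erg, Barx1, Osr1 and Osr2 with the chondrogenic factors, and Nog and Chrd with the BMP antagonists. The tendon list shares Fmod with cartilage matrix, and Kera, Thbs4 and Tnc with the matricellular list. Gdf5 (chr2:155941023-155945367), the BMP family ligand that marks forming joints, was at 26.4, 42.2 and 35.3 CPM in CBs and 3.09, 2.86 and 2.69 CPM in LMPs. The CB libraries stood clear of both the LMPs and the OCPs (3.92 ± 0.556 CPM; SD, n = 3), with a log2 fold change of 3.58 ± 0.22 (adjusted p = 7.30e-08); 40.3% of its exon length overlaps an antisense gene. Enpp1 and Enpp2, Wnt4 and Wnt9a were called higher with log2 fold changes of 4.59, 3.30, 3.26 and 2.36. Scx, the tendon transcription factor, missed the fold limit, at 101, 90 and 92.9 CPM in CBs and 52.5, 49.2 and 33.4 CPM in LMPs (log2 fold change 1.07 ± 0.15, adjusted p = 5.53e-05). Six2, a connective tissue gene, was at 44.5, 47.8 and 35.1 CPM against 6.06, 4.06 and 2.99 CPM, and Tnc (tenascin C) at 106, 105 and 77.4 CPM against 9.33 ± 1.46 CPM (SD, n = 3; log2 fold changes 3.27 ± 0.23 and 3.37 ± 0.57). In OCPs they were at 8.28 ± 1.81 CPM and 5.23 ± 2.33 CPM (SD, n = 3). Eya2, which encodes a partner of the Six2 protein, and Tgfbi were 2.60 and 1.80 higher. Dpep1, a membrane dipeptidase, was the member called lower, at 1.18, 0.513 and 0.668 CPM in CBs, 13.1, 14.2 and 12 CPM in LMPs and 8.88 ± 1.59 CPM in OCPs (log2 fold change -4.04 ± 0.33). Osteogenic and hypertrophic genes were mixed, with 4 of 14 higher and 2 lower. With a filter of 1 CPM in 3 libraries 2 were higher. Spp1 (osteopontin) was at 2.79, 3.87 and 3.69 CPM against 0.0407, 0.263 and 0.249 CPM and Pthlh, which holds back hypertrophy, at 0.639, 1.64 and 2.32 CPM against 0.122, 0.113 and 0.0996 CPM. Both were low everywhere. Phex, a protease of phosphate balance, was 2.89 higher, and Ihh, the hedgehog ligand of growing cartilage, at 1.29, was inside the limit without CB replicate 2 (1.15), CB replicate 3 (1.06) or LMP replicate 2 (1.11) and above an adjusted p of 0.1 without LMP replicate 1 or 3. The lower members were Twist1 and Msx2, which inhibit osteogenic and chondrogenic differentiation.

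**Figure D4:**
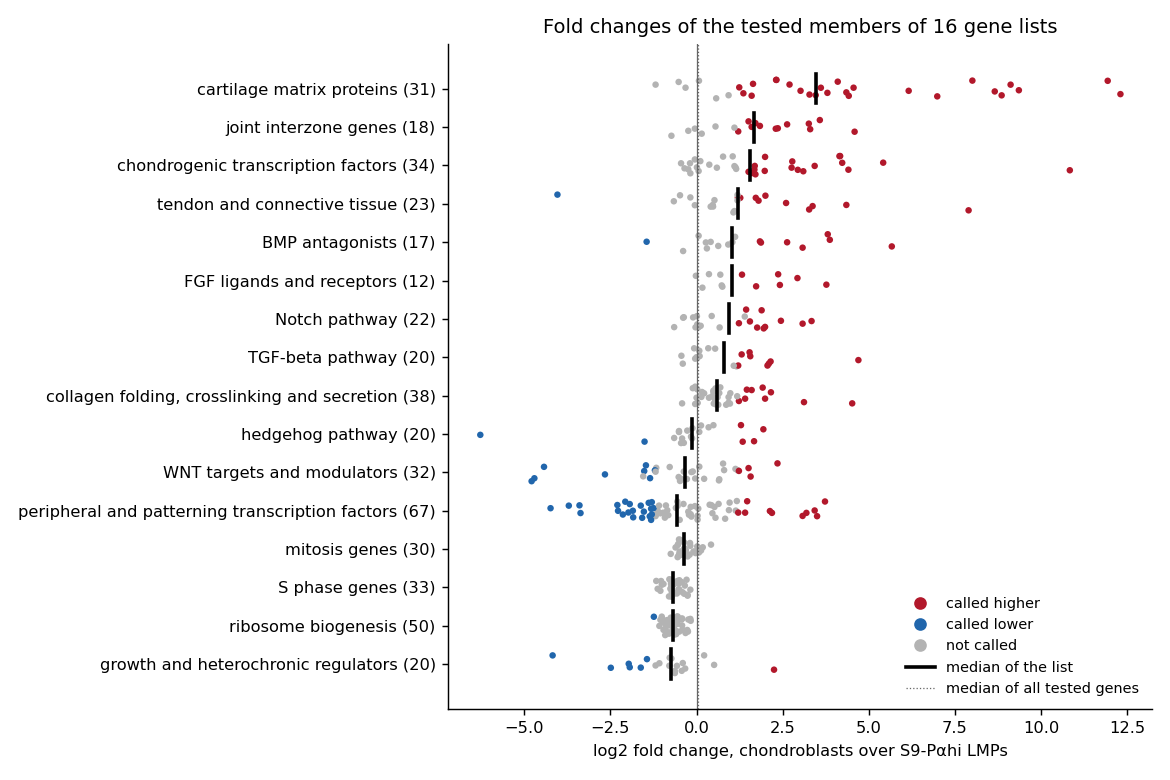
Log2 fold changes of chondroblasts over S9-Pαhi LMPs (x axis) for the tested members of 16 gene lists, with the number tested in brackets; points are genes, coloured by call, a black bar marks each list's median, and a dotted line the median of all tested genes (0.05). Cartilage matrix has the highest median (3.46) of the lists drawn, and the S phase and ribosome biogenesis lists lie to the left of 0 in a narrow band.

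Transcription factors of the peripheral and patterned mesenchyme, the longest list, held the most genes called lower by count. By share, the HoxB (4 of 9) and HoxC (3 of 8) lists held more. Of 67 tested, 22 were called lower (background 1.83%) and 10 higher, with a median log2 fold change of -0.56. Msx2 was at 21.5, 20.4 and 12.9 CPM in CBs and 94.3, 98 and 77.2 CPM in LMPs (log2 fold change -2.30 ± 0.19, adjusted p = 8.86e-07), and Msx1os, a transcript antisense to Msx1, fell with it (14.5, 20.2 and 17.6 CPM against 170.1, 160.1 and 180.4 CPM), though its reads and those of Msx1 cannot be told apart without strand. Tfap2c (chr2:172545678-172558622), an AP-2 factor, was at 1.41, 0.855 and 1.65 CPM in CBs and 20.9, 19.1 and 34 CPM in LMPs, and Prdm1 (BLIMP1) at 1.98, 1.27 and 1.18 CPM and 21.1, 18.9 and 20 CPM. Both had left the LMP range in OCPs as well, at 1.53 ± 0.611 CPM and 1.09 ± 0.342 CPM (SD, n = 3). Lhx2, a LIM homeobox gene needed for outgrowth, was at 55.5, 65.1 and 85.3 CPM against 292, 279 and 427 CPM (log2 fold change -2.28 ± 0.21). The anterior gene Alx4 was lower, at 72.6, 52.3 and 48.5 CPM against 230.0, 235 and 218 CPM (log2 fold change -1.98), and so were Tbx3 (-1.32), Prrx2 (-1.58) and Twist1 (-1.39). Prrx1, the pan-mesenchymal homeobox gene, stayed within the fold limit at 1008, 968 and 1158 CPM and 1294, 1486 and 1303 CPM (log2 fold change -0.38 ± 0.12), as did Hand2 (-0.15) and Tbx5 (0.52), the forelimb gene. The higher members included Tfap2b (21.6, 20.9 and 24.4 CPM against 1.83, 1.35 and 1.89 CPM), which is also a neural crest gene, and Pknox2 (24.3, 35.9 and 44.5 CPM against 3.21, 2.56 and 3.49 CPM), with log2 fold changes of 3.73 ± 0.23 and 3.50 ± 0.20. Foxf2, a forkhead gene, was 2.19 higher, and Sall1, at 1.41, was not called without CB replicate 3 (1.13).

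HOX genes were called in both directions. Hoxa13 and Hoxd13, genes of the autopod, the future hand, were higher in CBs. Hoxa13 (chr6:52258853-52260880) was at 27.6, 38.6 and 39.3 CPM in CBs and 4.84, 3.31 and 3.94 CPM in LMPs, and Hoxd13 (chr2:74668225-74671603) at 226, 334 and 346 CPM and 79.6, 62.4 and 72.7 CPM. No library overlapped (log2 fold changes 3.13 ± 0.19 and 2.08 ± 0.19, adjusted p = 5.88e-08 and 2.28e-06), and OCPs lay below both populations at 1.18 ± 0.229 CPM and 25.3 ± 5.4 CPM (SD, n = 3). Evx2 (chr2:74652989-74661520), the neighbour of Hoxd13 beyond the end of the cluster, was at 27.9, 45.6 and 36 CPM in CBs and at most 0.199 CPM in any LMP library (log2 fold change 8.12 ± 0.49, adjusted p = 6.91e-08), and Hottip, the long noncoding RNA beside Hoxa13, was at 9.89 ± 2.7 CPM against 0.298 ± 0.133 CPM (SD, n = 3). Evx2 was not particular to CBs. The JAG1-positive progenitors of the series, whose marker was gated out of the LMPs alone, held 45.2 ± 19 CPM of it (SD, n = 3). Hoxa11, the gene of the forearm segment, overlapped at 140.5, 179 and 212 CPM and 132, 131 and 180.3 CPM (log2 fold change 0.26 ± 0.15), with 35% of its exon length antisense to Hoxa11os, and Hoxd11 and Hoxd12 moved by 0.53 and 0.79, inside the fold limit. In all, 3 of 14 HoxA genes were called higher and 1 lower, and 2 of 10 HoxD genes higher and 1, Hoxd1 (-2.35), lower. Of those, Hoxa11os (1.25) was not called without CB replicate 2 (1.16), CB replicate 3 (1.10) or LMP replicate 2 (1.15), nor Hoxa7 (-1.22) without CB replicate 3 (-1.08) or LMP replicate 3 (-1.17). In HoxB and HoxC no gene was called higher by edgeR, with 0 at an unadjusted p under 0.05 and 0 by DESeq2, and 4 of 9 and 3 of 8 were called lower.

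The HoxB and HoxC values depended on which library was read. HoxB genes summed to 96.3, 74.7 and 10.8 CPM in the 3 CB libraries and to 118.9 to 129 CPM in LMPs, and HoxC genes to 103.3, 82.8 and 15 CPM against 72 to 79.4 CPM. CB replicate 3 thus stood far below the other two. Hoxb5 was at 5.85, 3.94 and 0.157 CPM in CBs and 12.9, 12 and 12.3 CPM in LMPs (log2 fold change -1.88 ± 0.56, adjusted p = 0.0138), and Hoxb6, called at -1.62, was not called without CB replicate 3 (-1.14). Without CB replicate 1, 8 HoxB genes were called lower in place of 4. Hoxb9 was at 0.37, 0.308 and 0.118 CPM and 2.6, 2.48 and 5.73 CPM and Hoxc9 at 0, 0.0342 and 0 CPM and 0.529, 0.827 and 2.44 CPM, both lower (log2 fold change -3.70 ± 0.64 for Hoxb9, and a ratio of summed counts of 99.5-fold (95% exact interval 17.4 to 3977) in favour of LMPs for Hoxc9). Hoxb1 had no count in CBs and 0.773, 1.05 and 0.548 CPM in LMPs, at least 7.39-fold lower. Hoxc8, at -1.62, was above an adjusted p of 0.1 without CB replicate 3 or LMP replicate 3.

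The proximal and anterior genes Pax1 and Irx3 set the same CB library apart. Pax1 was at 34.1, 24.5 and 0.825 CPM in CBs and 112, 108 and 42.4 CPM in LMPs (log2 fold change -2.14 ± 0.71, adjusted p = 0.0239). Irx3 was at 79.7, 50.4 and 5.58 CPM and 112, 98.5 and 96.6 CPM and was not called (adjusted p = 0.116), but was called lower without CB replicate 1 (-1.90), as was its neighbour Irx5 (-1.58, against -0.89 with all libraries). Meis2, a proximal gene called lower at -1.32, was at 115, 86.6 and 15.7 CPM in CBs, and lost its call without replicate 3 (-0.89). LMP replicate 3 stood apart in another set. Pitx1, the hindlimb gene, was at 2.11, 2.67 and 38.2 CPM in LMPs and 1.61, 1.3 and 1.14 CPM in CBs. One library carried nearly all of it, and without that library the log2 fold change went from -3.37 to -0.82 (adjusted p = 0.681). Its call was also lost without any one of the CB libraries, where adjusted p was 0.124 to 0.143. Hoxc10 rested on the same library (0, 0.226 and 7.92 CPM in LMPs against 1 read in CBs, and an adjusted p of 0.57 without it), and without it 1 HoxC gene was called lower in place of 3. Tbx4 went the other way. It was not called with all libraries (0.96) and was called higher in CBs without LMP replicate 3 (1.43). Lin28a, an RNA-binding inhibitor of let-7 maturation, was at 8.78, 6.84 and 42.6 CPM in LMPs and 1.38, 0.753 and 1.02 CPM in CBs, so that it was lower in CBs with that library or without it. Pitx1 and Lin28a also varied among the OCPs, at 29.4, 4.14 and 0.0723 CPM and 55.8, 12 and 15 CPM.

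**Figure D5:**
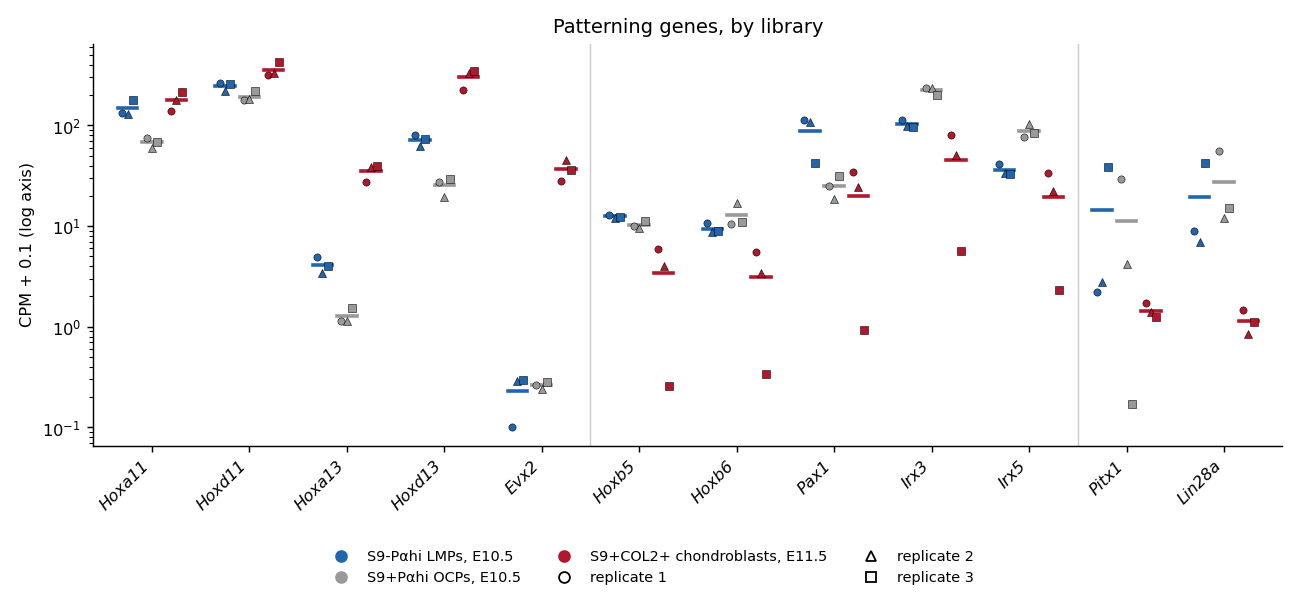
CPM + 0.1 of 12 positional genes on a log axis, 1 point per library and a bar at the mean of 3. Of the populations drawn, chondroblasts are highest for the autopod genes Hoxa13, Hoxd13 and Evx2, and the JAG1-positive population is not drawn. Chondroblast replicate 3 (red square) is low for Hoxb5, Hoxb6, Pax1, Irx3 and Irx5, and LMP replicate 3 (blue square) is high for Pitx1 and Lin28a.

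BMP signals and their antagonists were rearranged. Bmp4 (chr14:46383525-46390669), the ligand of the early mesenchyme, was at 50.5, 48 and 31 CPM in CBs and 119, 123 and 110.0 CPM in LMPs. It was lower in every CB library (log2 fold change -1.44 ± 0.14, adjusted p = 4.35e-06). Bmp2 ran the other way at 35.1, 38.5 and 30.9 CPM against 9.12 ± 4.79 CPM (SD, n = 3; log2 fold change 1.92 ± 0.34), and 4 of 11 ligands in all were higher, among them Bmp3 (2.71) and Gdf10 (1.63), although for Bmp2 OCPs had less than either, at 2.71 ± 1.06 CPM (SD, n = 3). Of 17 receptors and Smads 3 were higher, beside the 10.8% of all genes. Bmpr1b, the type I receptor of condensations, was at 67.1, 86.8 and 101 CPM in CBs and 17.2, 20.9 and 18.3 CPM in LMPs, 4.51-fold higher (log2 fold change 2.17 ± 0.15, adjusted p = 1.32e-07), and Acvrl1 and the co-receptor Rgmb were 1.96 and 1.31 higher. Of 17 antagonists and modulators 7 were higher and 1 lower. Bmper and Chrdl1, secreted chordin-like binders of BMPs, were at 26.3, 35.8 and 37.1 CPM and 90.3, 131 and 143 CPM in CBs against 0.854, 0.564 and 0.498 CPM and 15.5, 14 and 13.6 CPM in LMPs. Their log2 fold changes were 5.67 ± 0.39 and 3.08 ± 0.16, and OCPs lay in between at 6.17 ± 2.84 CPM and 49.8 ± 7.79 CPM. Nog (noggin) was at 6.93, 10.1 and 10.1 CPM against 1.67, 1.65 and 0.996 CPM (log2 fold change 2.63 ± 0.30), and Fst (follistatin), which binds activins, was 3.81 higher. The antagonist called lower was Grem1, which relays SHH to the ridge, at 9.25, 8.45 and 9.15 CPM against 21.7, 21.2 and 30.7 CPM (log2 fold change -1.45 ± 0.21, adjusted p = 1.08e-04). Id and BMP target genes showed no common shift (2 of 12 higher, 3 lower, median -0.05). The lower ones were Msx1, Msx2 and Gata3 and the higher ones Id4 and Hey2; Gata3, at 0.538, 1.61 and 0.275 CPM against 1.87, 2.33 and 2.09 CPM, was not called without CB replicate 1 (-1.16) or 3 (-1.01) or LMP replicate 2 (-1.27) or 3 (-1.36). In the TGF-beta pathway 8 of 20 were higher, among them the latent TGF-beta binding proteins Ltbp1 (211, 266 and 293 CPM against 67, 66.6 and 50.7 CPM), Ltbp3 and Ltbp4 (log2 fold changes 2.06, 2.15 and 1.56). Tgfb3, at 1.21, was inside the limit without CB replicate 1 (1.17), CB replicate 2 (1.13) or LMP replicate 3 (1.19).

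WNT signalling held some of the largest falls. Of 32 targets and modulators 8 were called lower and 4 higher (median -0.33). Dkk1 (chr19:30545876-30549496), a secreted WNT inhibitor that WNT signals induce and whose promoter is shown above, was at 1.21, 0.753 and 0.903 CPM in CBs and 24.8, 26.8 and 23.8 CPM in LMPs. The 3 LMP libraries were within a few CPM of each other and the CB libraries all near 1 CPM (log2 fold change -4.71 ± 0.24, adjusted p = 3.46e-08). Notum, the WNT deacylase, was at 0.841, 0.787 and 0.589 CPM against 22.2, 12.4 and 13.8 CPM, and Rspo4 (chr2:151842647-151874668), an R-spondin that boosts WNT signals, at 5.72, 3.35 and 2.16 CPM against 94.9, 91.2 and 128 CPM. Their log2 fold changes were -4.43 ± 0.29 and -4.79 ± 0.40; 38.1% of the exon length of Notum overlaps an antisense gene. The transcription factors Tcf7 and Lef1 and the feedback target Axin2 were lower as well. Tcf7 was at 12.4, 13 and 14.1 CPM against 76.6, 69.7 and 104 CPM, Lef1 at 42.8, 38.7 and 31.3 CPM against 109, 100.2 and 116 CPM, and Axin2 at 66.3, 53.2 and 35.4 CPM against 160.4, 152 and 116 CPM, with log2 fold changes of -2.66 ± 0.16, -1.52 ± 0.14 and -1.47 ± 0.21. In OCPs Dkk1 was as low as in CBs, at 0.805 ± 0.286 CPM, while Rspo4 was at 30.7 ± 11.3 CPM (SD, n = 3), between the 2 populations. Nkd2 and Apcdd1 complete the lower members, at -1.21 and -1.35; without CB replicate 3 they were at -1.19 and -1.08 and not called, nor was Nkd2 without LMP replicate 1 (-1.12). The members called higher were Lgr5, a receptor of R-spondins (10.6, 10.7 and 8.72 CPM against 1.46, 2.78 and 1.54 CPM), Sfrp2, Dkk3 and Sfrp4; Dkk3 and Sfrp4 were not called without CB replicate 3 (1.07 and 1.38) or LMP replicate 2 (1.15 and 0.93), nor Sfrp4 without CB replicate 2 (1.28). Of the 24 ligands and receptors 8 were higher and 1 lower. Wnt5a, the non-canonical ligand of the distal limb, was at 352, 422 and 489.9 CPM in CBs and 162, 167 and 164 CPM in LMPs (log2 fold change 1.36 ± 0.13), and was just inside the limit without CB replicate 3 (1.19). Fzd4, Fzd5, Fzd8 and Fzd9 were higher by 1.99, 2.75, 2.51 and 3.87, and Fzd10 was the receptor that was lower, at 20.1, 18.1 and 17 CPM against 103, 93.6 and 126 CPM (log2 fold change -2.54 ± 0.22, adjusted p = 1.25e-06).

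Of 20 hedgehog genes 4 were called higher and 2 lower (background 10.8% and 1.83%). Shh (chr5:28456840-28467101), the signal of the posterior polarising region, was at 0.303, 0.0684 and 0.236 CPM in CBs and 19, 13.7 and 15.5 CPM in LMPs. CB libraries were near the floor of 3 counts, and the log2 fold change was -6.28 ± 0.29 (adjusted p = 2.56e-08), with OCPs at 0.219 ± 0.0176 CPM (SD, n = 3); 28.3% of its exon length overlaps an antisense gene. The response genes Gli1 and Ptch1, however, were at 65, 84.6 and 82.9 CPM and 119, 136 and 154 CPM in CBs against 72.8, 54.4 and 54.5 CPM and 104, 97.9 and 88.9 CPM in LMPs. Gli1 libraries overlapped (adjusted p = 0.162) and Ptch1 was 0.49 higher, within the fold limit. Hhip, a decoy receptor, Boc, a co-receptor, and Scube2, which releases the ligand, were called higher (1.67, 1.34 and 1.94), Scube1 lower at 250.2, 216 and 194 CPM against 616, 663 and 593 CPM (log2 fold change -1.51 ± 0.16), and Gli2, Gli3 and Cdon stayed inside the limit at 0.13, -0.45 and -0.16.

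FGF receptors and ligands were called higher in 6 of 12 tested members (median 1.04). Fgfr3, the receptor of cartilage, was at 49.1, 59.1 and 73.1 CPM in CBs and 9.15, 8.16 and 6.28 CPM in LMPs (log2 fold change 2.93 ± 0.23, adjusted p = 4.56e-07), while Fgfr2 was 0.75 higher and within the limit. Fgfr4 and Fgf9 were 1.73 and 2.37 higher, and Fgf18, at 1.32, was not called without CB replicate 1 or LMP replicate 3. Fgf8, a ligand of the ectodermal ridge, was at 2.02, 3.8 and 1.22 CPM against 0.244, 0.15 and 0.0996 CPM and is counted with ectodermal genes below. Of 17 read-outs of FGF signalling 2 were called higher and 1 lower (background 10.8% and 1.83%). By the p limit alone 3 were higher and 8 lower (background 30.1% and 26.0%), with a median of -0.29. Etv4 was lower, at 34, 32.9 and 21 CPM against 71.5, 69.8 and 92.5 CPM (log2 fold change -1.41 ± 0.16), and was at -1.08 and not called without CB replicate 3 and LMP replicate 3 together. Dusp6 overlapped between the groups (adjusted p = 0.15). Spry2, at 111, 105 and 86.4 CPM against 49.6, 35.8 and 46.6 CPM, lay just under the fold limit, and was called without CB replicate 3 (1.25), LMP replicate 1 (1.30) or LMP replicate 3 (1.24), whereas Spry1 and Spry4 were at -0.73 and -0.52. The members called higher were Flrt2 (2.03) and Spred3 (1.23), the latter not without CB replicate 1 (1.17), CB replicate 2 (1.18) or LMP replicate 3 (1.08).

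Notch genes were higher in 10 of 22 tested members (background 10.8%), Jag1 of the sort among them. Maml2, at 1.23, was not called without CB replicate 2 (1.19), CB replicate 3 (1.16) or LMP replicate 3 (1.16). Notch1 was at 111, 122 and 154 CPM in CBs and 35.5, 43.9 and 25 CPM in LMPs (log2 fold change 1.89 ± 0.22, adjusted p = 1.49e-05), and the ligands Dll3 and Dll4 were 3.08 and 2.45 higher at low levels. The targets Hey2 and Nrarp were 1.44 and 1.76 higher; Nrarp overlaps an antisense gene over 79.4% of its exons. Notch3, per kilobase the more abundant of these 2 receptors in LMPs (53.5 RPKM, against 3.66 RPKM for Notch1), was -0.37. In the retinoic acid pathway 4 of 17 were higher and 1 lower (2 lower without CB replicate 1 or without CB replicate 2), beside 10.8% and 1.83% of all genes. Aldh1a2 (chr9:71215789-71296243), the enzyme that makes retinoic acid, was at 72.2, 109 and 115 CPM against 3.05, 2.03 and 3.54 CPM (log2 fold change 5.12 ± 0.40, adjusted p = 5.38e-07). Aldh1a3, its relative, and the receptor Rxrg were 4.47 and 2.96 higher, and so was Dhrs3 (1.55), which turns retinal back into retinol. Crabp1 (chr9:54764748-54773110), the cytoplasmic binding protein of retinoic acid, was lower at 57.2, 50 and 36.7 CPM against 341, 288 and 480.5 CPM (log2 fold change -2.95 ± 0.36). In the PDGF and IGF pathways 6 of 21 genes were higher and 1 lower. Igfbp5, an IGF binding protein, was at 929, 953 and 549 CPM in CBs and 45.5, 46.3 and 39.8 CPM in LMPs, lowest in replicate 3 of the CBs yet far from the LMP range (log2 fold change 4.21 ± 0.50), and Igfbp3 was 2.70 higher. Pdgfd and Pappa, a protease of IGF binding proteins, were 1.61 and 1.67 higher. The lower member, Htra1 (-1.43), was not called without CB replicate 3 (-1.19). Guidance signals of the Eph, ephrin, semaphorin and netrin families were called higher in 12 of 43 (background 10.8%). Sema3d led them at 60.7, 76.8 and 83.4 CPM against 1.55, 2.93 and 1.64 CPM (log2 fold change 5.15 ± 0.36, adjusted p = 1.76e-07). Efna1, an ephrin ligand, was at 25.3, 28.1 and 39.6 CPM against 3.58, 4.48 and 2.99 CPM, with OCPs at 3.6 ± 0.66 CPM, and Sema3b and Sema6a were 2.55 and 2.41 higher.

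Growth genes were lower by small amounts across whole lists. Of 33 S phase genes, all 33 had CB libraries below all LMP libraries (background of such genes 29.7%) and 31 passed the p limit alone (background 26.0%), with a median log2 fold change of -0.67. None passed the fold limit in edgeR, where 31 had an unadjusted p under 0.05, or in DESeq2. Rrm2, the ribonucleotide reductase subunit, was closest at 220.0, 199 and 197 CPM against 462, 407 and 513 CPM (log2 fold change -1.17 ± 0.09), and Pcna and Mcm5, of the replication fork and helicase, were -0.79 and -0.76. Without CB replicate 1 or without LMP replicate 2, 2 S phase genes were called lower, Rrm2 (-1.25 in each case) and Ccne1 (-1.31 and -1.22). The median of the list was -0.19 for OCPs over LMPs and -0.41 for CBs over OCPs. Mitosis genes leaned the same way with a median of -0.35, and 18 of 30 were lower by adjusted p alone and 1 higher (background 26.0% and 30.1%). None passed the fold limit in edgeR, where 18 were lower and 1 higher at an unadjusted p under 0.05, or in DESeq2. Among 23 G1 cyclins and cell cycle inhibitors 4 were called higher, the stress and arrest genes Cdkn2b, Btg2, Trp53inp1 and Gadd45b (3.41, 1.42, 1.42 and 1.26, the last not without CB replicate 3, at 1.19, or LMP replicate 3, at 0.81). Ccnd1, a G1 cyclin, was 0.51 higher and within the limit, and Cdk6 and the inhibitor Cdkn2c were at 0.26 and 0.35. Mycn (chr12:12936093-12941836), which drives growth of progenitors, was called lower at 42.7, 42.1 and 35.8 CPM against 142, 127 and 203 CPM (log2 fold change -1.97 ± 0.17, adjusted p = 9.72e-07).

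Ribosome biogenesis genes were lower by a like amount. Of the 50 genes, 48 were lower by adjusted p alone (background 26.0%). Every one had a negative log2 fold change, as did 6971 of all 15125 tested genes. The median was -0.67, and that of all tested genes above 6 log2 CPM was -0.17. The summed level of the list was 4700.4 to 5008 CPM in CBs against 7510.3 to 8728 CPM in LMPs. The gene past the fold limit was Nhp2, a snoRNP protein (-1.24), which was not called without CB replicate 3, and was at -1.05 without LMP replicate 3. Npm1, the nucleolar phosphoprotein, was at 673, 583 and 638 CPM against 1130.3, 1119 and 1448 CPM (log2 fold change -0.96 ± 0.14). Of 33 glycolysis and hypoxia genes 3 were called higher and 3 lower (background 10.8% and 1.83%), with 5 lower without LMP replicate 2. By the p limit alone 6 were higher and 14 lower (background 30.1% and 26.0%), with a median of -0.08. Single members went both ways, with 15 positive and 18 negative log2 fold changes. Slc2a3 was called higher (1.25), but not without CB replicate 2 (1.17), CB replicate 3 (1.14) or LMP replicate 1 (1.19). The summed level of the list, which follows its abundant members, was 3304 to 3675 CPM in CBs against 5612 to 6968 CPM in LMPs. Pkm (chr9:59656576-59679372), pyruvate kinase, was at 850.0, 732 and 803 CPM in CBs and 2054, 1726 and 2238 CPM in LMPs, and Eno1 at 141, 122 and 128 CPM and 344, 289 and 396 CPM. The log2 fold changes were -1.34 ± 0.17 and -1.40 ± 0.15, and Eno1 shares reads with its near-identical copy Eno1b (-1.42). Ldha, lactate dehydrogenase, was -1.30, and inside the limit without LMP replicate 3 (-1.17). The list of growth and heterochronic regulators, genes of early embryonic timing, had 6 of 20 lower and 1, Zbtb8b (2.25), higher. Lin28b was at 34.7, 28.7 and 31.1 CPM against 82.4, 91.9 and 116 CPM (log2 fold change -1.62 ± 0.13), Trim71 and Sall4 were -1.44 and -1.94, and Prtg (protogenin) was -2.49. Igdcc3 (chr9:65141154-65187031), an immunoglobulin superfamily gene related to protogenin, was among the abundant genes lower in CBs, at 51.4, 40.5 and 45.7 CPM in CBs and 652, 578 and 951 CPM in LMPs (log2 fold change -3.99 ± 0.25, adjusted p = 8.11e-08). OCPs, of the same stage as the LMPs, had 547 ± 176 CPM (SD, n = 3). Of 21 imprinted growth genes 2 were called higher (background 10.8%), and 5 without LMP replicate 1 or with library totals. They were Plagl1 (1.88) and Rian (1.26), the latter not without CB replicate 1 (1.14), CB replicate 2 (1.12) or LMP replicate 3 (1.10).

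Beside the OCPs, the named genes are given here with each contrast's own values. The OCP contrasts share libraries with the main one, and called 3.48% of genes higher and 1.36% lower for OCPs over LMPs, and 6.60% and 1.16% for CBs over OCPs. Some genes were called in OCPs over LMPs and not in CBs over OCPs. Prelp was 7.76 in OCPs over LMPs and 0.90 in CBs over OCPs, Msx1 was -3.63 and 0.23, Shh -6.17 and -0.11, and Dkk1 -4.94 and 0.23. Others were not called in OCPs over LMPs and were called in CBs over OCPs. Runx1 was -0.53 and 4.76, Gdf5 0.45 and 3.13, Evx2 0.36 and 7.76, and Igdcc3 -0.41 and -3.58. Both contrasts were called, in the same direction, for Col9a2 (4.50 and 2.50), Foxc1 (4.05 and 1.37), Bmper (3.25 and 2.42), Notum (-2.41 and -2.02) and Rspo4 (-1.77 and -3.02). For others the 2 contrasts had opposite signs. Tbx2 was -3.36 and 1.74, Hoxa13 -1.75 and 4.87, Bmp2 -1.78 and 3.70, and Pax9 -3.40 and 6.34, each called in both.

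Markers of cells that the gates were meant to remove were low but not equal. Of 10 tested glial and neural crest genes 7 were higher in CBs (median 2.30), and 4 with a filter of 1 CPM in 3 libraries. Sox10, the defining glial factor, was at 2.96, 2.36 and 3.02 CPM in CBs, 0, 0.113 and 0.0498 CPM in LMPs and 2.98 ± 1.07 CPM in OCPs, and Erbb3 at 9.69, 13 and 18.3 CPM against 0.285, 0.338 and 0.349 CPM, while Sox2 and Fabp7 were under 0.2 CPM in mean in both populations. Of 9 tested ectodermal genes 5 were higher, among them Perp, Krt18, Grhl2 and Fgf8 (3.33, 1.70, 2.00 and 3.77), and 1, Sp6 (-1.25), lower, with a summed level of 24.8 to 30 CPM against 8.32 to 11.7 CPM. Krt14 and Krt5, keratins of the skin, had means of at most 0.452 CPM. Sp6 was not called without CB replicate 2 (-1.26), CB replicate 3 (-1.04), LMP replicate 1 or LMP replicate 3 (-1.04), and its exons are antisense to another gene over 86.7% of their length. Of 12 endothelial genes 1 was higher, Erg, which is also a cartilage gene, and 4 were lower, Tie1, Tek, Emcn and Cdh5 (-2.32, -1.61, -2.06 and -1.35); without CB replicate 1, CB replicate 2 or LMP replicate 3, 2 were lower. The endothelial genes, Erg included, summed to 38.9 to 62.9 CPM in CBs and 26.7 to 35.3 CPM in LMPs. The 11 tested members other than Erg all had negative log2 fold changes, and the median of the list was -0.79. Pecam1 was at 0.636 ± 0.0845 CPM and 0.783 ± 0.437 CPM (SD, n = 3). Of 2 tested leukocyte genes 1, Laptm5 (1.23), was higher, though not without CB replicate 1 (1.08), CB replicate 3 (1.17) or LMP replicate 3 (0.95), and Ptprc, which encodes CD45, was at 0.152 ± 0.044 CPM and 0.136 ± 0.0786 CPM.

 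Other lineages of the limb bud were split. Of 15 tested muscle genes 7 were higher and 5 lower, and the list took 16.8 to 22.1 CPM in CBs and 13.5 to 15.5 CPM in LMPs. With a filter of 1 CPM in 3 libraries 2 were called higher. Among all tested genes with a mean of at most 0 log2 CPM, 35.7% were called higher. The higher ones included Myog, Mymk and Actc1, and the lower ones Lbx1, Mybpc1, Chrna1 and Des. Myod1, the defining myogenic factor, stood at 0.605, 0.753 and 0.668 CPM against 0, 0.188 and 0 CPM. Red blood cell genes had 2 of 11 higher, the near-identical globins Hbb-bs and Hbb-bt (3.04 and 2.41, Hbb-bt not without CB replicate 2, LMP replicate 2 or LMP replicate 3), and 6 were higher when the 6 libraries were fitted alone and 4 by DESeq2. Their sum varied from 9.85 to 52.6 CPM among the LMPs and from 56.4 to 98 CPM among CBs. Of 11 tested neuronal genes 3, Stmn2, Map2 and Ina, were higher and 1, Gap43, lower (4.72, 1.45, 1.39 and -1.70); Stmn2 was at 8.64, 11.8 and 11 CPM against 0.691, 0.188 and 0.299 CPM, and Ina was not called without LMP replicate 1 or 2. Of 8 nuclear-retained RNAs 4 were higher, among them Neat1 and Miat (2.42 and 4.04), and 2 without LMP replicate 3, while 7 were higher when libraries were scaled by their totals. Malat1 was at 293, 205 and 224 CPM against 74.6, 143 and 55.1 CPM (log2 fold change 1.40 ± 0.40) and at 1.14 without LMP replicate 3. Of 22 immediate early and stress genes 5 were higher, and from 2 to 3 without CB replicate 1, CB replicate 2, LMP replicate 2 or LMP replicate 3; Jun was at 567, 475 and 392 CPM against 300.2, 184 and 136 CPM, called at 1.21 and inside the limit without CB replicate 1 (1.04), CB replicate 2 (1.18), LMP replicate 2 (1.13) or LMP replicate 3 (0.98). Egr2 and Atf3 were 2.00 and 1.62 higher, Egr2 not without CB replicate 1 or LMP replicate 3. The part of these signals in the other results was not tested.

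Genes of other functions, outside the lists, were among the largest changes. Rflna (refilin A), an actin regulator, was at 12.5, 22 and 28.6 CPM in CBs and 0.285, 0.376 and 0.349 CPM in LMPs. It was higher in every CB library (log2 fold change 5.95 ± 0.32). Moxd1, a monooxygenase, and Cavin2, of caveolae, were 4.72 and 4.85 higher, Moxd1 at 1.06 ± 0.221 CPM and Cavin2 at 6.84 ± 1.99 CPM in OCPs (SD, n = 3). Fat4, a giant cadherin of tissue polarity, was at 438, 447 and 439 CPM against 88.6, 109 and 68 CPM, and Ebf3 at 368, 437 and 403 CPM against 63.1, 71.8 and 42.4 CPM (log2 fold changes 2.31 ± 0.18 and 2.77 ± 0.23). Among the genes that were lower, Cyp1b1, a cytochrome P450, was at 2.05, 2.33 and 2.08 CPM against 22.4, 15.8 and 21.4 CPM and the agouti gene, a, at 2.09, 1.92 and 1.88 CPM against 16.8, 19.1 and 20.4 CPM. Eif5a, a translation factor, was lower (-1.39) at a mean of 1255 ± 195 CPM in LMPs, and Fndc3c1 was lower (-1.56), with 561 ± 57.1 CPM in OCPs and 551 ± 58.1 CPM in LMPs. Pkdcc, a secreted kinase needed for long bones, was lower at 271, 216 and 61.3 CPM against 671, 585 and 496 CPM, least in CB replicate 3 (log2 fold change -1.68 ± 0.46).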

How the data were processed

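RNA from fluorescence-sorted forelimb bud cells was sequenced in 14 samples, and 6 of them enter the comparison described here. The authors selected poly(A) RNA, aligned single-end reads with STAR to mm10, keeping 1 position for reads with several, and counted reads starting in exons of RefSeq mRNAs with the qCount function of QuasR, and they deposited whole-number counts per gene together with a gene length. The strand setting and the versions of the aligner are not given in the sources used here, and counts of near-identical genes and of genes that overlap an antisense gene (also Spry1, over 24.4% of its exon length, and Ccnd1, over 23.4%) are uncertain. Of 24454 identifiers 80 matched no RefSeq name and held 0.358% of counts.

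Counts were fitted with edgeR 4.0.16 in R 4.3.3 over all 14 libraries, which share 1 estimate of the spread (9 residual degrees of freedom, biological coefficient of variation 13.4%), after filterByExpr by population (15125 genes kept) and TMM scaling. The contrast was tested with the quasi-likelihood F test, two-sided, with Benjamini-Hochberg adjustment over all tested genes. Calls needed both an adjusted p up to 0.1 and a log2 change of 1.2 or more in size. SE is the log2 fold change divided by the square root of F. RPKM used the deposited lengths. Ratios of counts carry 95% exact intervals, which cover counting error only, and a group at 0 was set to a floor of 3 counts per library.

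Genes were named by a rule: up to 15 of the largest fold changes each way among 796 called genes of sufficient level and non-overlapping libraries, the 10 largest differences in mean CPM each way, up to 4 called members each way of each of 46 gene lists, and the genes of the sort, the markers and genes that the study's text names. Another 56 were chosen after their values were seen, and so were the promoters printed. Results for some genes are not reported here. The members and the lists were chosen with earlier results of these data known. Promoters are RefSeq windows of GRCm38.p6.

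The fit was tested on simulated counts of 14786 genes for this contrast, in which it recovered 62 of 67 genes planted at a log2 change of 1.5, 62 of 67 at 2 and 64 of 66 at 3, with 5 false calls. The planted changes were in CBs alone and went equally both ways, and all other genes had the same mean in every population. In the data 85.5% of calls were higher and single libraries stood apart. The simulation therefore did not test the scaling or the effect of such libraries. Alternatives were DESeq2 1.42.0, its size factors, library totals, other filters and limits, the likelihood ratio test, the 6 libraries alone, a replicate block and each library left out. Tables and figures were made with Python 3.11.15, pandas 2.3.3, scipy 1.17.1 and matplotlib 3.10.9.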

Additional observations from a re-analysis of the deposited data

How the results depend on the processing

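The count of 1914 called genes (1637 higher, 277 lower) was 1894 with DESeq2 size factors, 2034 with library totals, 2210 with no filter, 1386 with a filter of 1 CPM in 3 libraries, 1670 with the 6 libraries alone and 1981 by DESeq2, and ran from 1678 to 1971 with 1 library left out. Higher calls ran from 1375 to 1655 and lower calls from 238 to 335 over those omissions. Without CB replicate 3 and LMP replicate 3 together, an alternative chosen after the data were seen, 1662 genes were called, 1458 higher and 204 lower. With no fold limit 8495 genes passed, 4555 higher and 3940 lower, and with a limit of 1 there were 2368, of which 419 were lower. With the replicate number as a block, the replicate block fit called 1918 genes, 1636 higher and 282 lower. The deviations of same-numbered CB and LMP libraries correlated at 0.048, -0.015 and 0.118, which does not establish pairs, and CB replicates 1 and 2 did not correlate best with their own number, while replicate 3 did. Under the block Irx3 (-1.50, adjusted p = 0.0275) and Meis1 (-1.29, adjusted p = 0.00406) were called lower, and Emcn, Sp6 and Ina lost their calls (adjusted p = 0.115, 0.11 and 0.106).

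Of 289 named genes, 3 that were not called with all libraries changed sign. Ly6a (-0.01) was at 0.09 with library totals, from -0.63 to 0.30 with 1 library left out and at 0.27 without both libraries of replicate 3. Osr1 (-0.05) was at 0.05 with library totals and from -0.22 to 0.06 with 1 library left out. Dusp6 (-0.29) was at 0.02 without both libraries of replicate 3, and at -0.45 at the lowest with 1 library left out. Omitting CB replicate 3 lost the calls of 24 named genes and omitting LMP replicate 3 those of 23, the most of the single omissions; the cause was not tested. Library totals moved the median of all tested genes from 0.05 to 0.16, and lost 8 calls of named genes. With that scaling the summed level of 24 of the 46 lists counted as moved, whereas all 46 counted as unchanged with DESeq2 size factors. Depth limits genes near the floor of 3 counts, which stood at 0.101 to 0.149 CPM, and 831 of the genes called higher lay at or under 1 CPM on average.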
